A study of Mus musculus with 3 samples.

Results

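The genes described here are 8 genes grouped as regulators of detained introns, 7 of them for proteins that act in pre-mRNA splicing, taken from 55450 annotated genes by their symbols. They were the kinase genes Clk1, Clk2, Clk3 and Clk4, the splicing factor genes Rbm39, Rbm5 and Luc7l2, and Ogt, which encodes O-GlcNAc transferase. Together they had 116 of the 141767 annotated isoforms, and all 8 were found by gene identifier in the gene and transcript tables of every library. The RNA came from the chromatin fraction of bone marrow-derived macrophages, primary cells of C57BL/6J mice that had been stimulated with Lipid A, the Toll-like receptor 4 ligand within lipopolysaccharide, at 100 ng/ml for 40 min. It was sequenced as ribosome-depleted total RNA in 1 group of 3 biological replicates, numbered 1, 2 and 3, which cite the same donor entry; the RNA put into the library was 1 µg for replicate 1, 250 ng for replicate 2 and 500 ng for replicate 3. Untreated cells and other cell fractions were not analysed here, so genes were compared within each library and no change with Lipid A was measured.

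A detained intron is left in an otherwise spliced and polyadenylated transcript, which then stays in the nucleus until the intron is removed or the RNA is degraded. CLK kinases phosphorylate the serine- and arginine-rich (SR) proteins that direct splice site choice, and transcripts of the CLK genes themselves are a known place of detained introns that respond to CLK activity. OGT attaches O-GlcNAc sugars to nuclear and cytoplasmic proteins, and a detained intron of its transcript is known to respond to the level of that modification. RBM39 and RBM5 are RNA-binding splicing factors, RBM39 being related to the U2AF large subunit that recognises the end of introns, and LUC7L2 binds with the U1 particle at the start of introns. In the annotation used, an isoform type is given to each transcript: protein-coding, retained intron, nonsense-mediated decay (a coding transcript with a premature stop), or other. On chromatin, introns not yet removed from nascent RNA and detained introns cannot be told apart.

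The kinase genes share an exon whose neighbouring introns are kept in some of their retained-intron isoforms. Exons and introns were numbered along the coding isoform with the longest coding sequence, and exons 5, 6, 7 and 8 then had the same lengths in all 4 kinase genes, at 67, 117, 167 and 95 bases. Exon 4 measured 91 bases in Clk1, 88 in Clk2, 97 in Clk3 and 91 in Clk4, each 1 base over a multiple of 3. Introns 3 and 4 were kept together in Clk1-204, Clk1-212, Clk2-207, Clk3-203 and Clk4-213. Intron 4 without intron 3 was kept in Clk2-206, and intron 3 without intron 4 in Clk3-207. Retained-intron isoforms also kept intron 6 of Clk1, intron 11 of Clk2 and introns 7 and 8 of Clk4 whole. The sequences show exon 4 in capitals with 20 bases of intron 3 before it and 20 bases of intron 4 after it, 5′ to 3′ on the gene's strand, from the mm10 annotation's transcripts, because the isoforms described later differ in whether they hold it with its introns, hold it spliced, or skip it.
Clk1 (chr1:58420101-58420231, minus strand): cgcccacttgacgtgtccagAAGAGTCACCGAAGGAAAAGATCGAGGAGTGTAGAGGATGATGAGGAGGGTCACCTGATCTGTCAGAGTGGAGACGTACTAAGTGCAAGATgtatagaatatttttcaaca
Clk2 (chr3:89169595-89169722, plus strand): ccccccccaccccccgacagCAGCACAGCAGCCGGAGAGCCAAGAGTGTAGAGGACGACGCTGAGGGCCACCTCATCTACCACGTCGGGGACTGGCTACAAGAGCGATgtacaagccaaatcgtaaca
Clk3 (chr9:57758607-57758743, minus strand): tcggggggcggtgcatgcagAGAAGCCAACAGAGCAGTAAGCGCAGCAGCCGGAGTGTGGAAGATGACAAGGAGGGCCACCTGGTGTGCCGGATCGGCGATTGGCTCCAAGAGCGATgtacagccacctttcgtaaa
Clk4 (chr11:51273058-51273188, plus strand): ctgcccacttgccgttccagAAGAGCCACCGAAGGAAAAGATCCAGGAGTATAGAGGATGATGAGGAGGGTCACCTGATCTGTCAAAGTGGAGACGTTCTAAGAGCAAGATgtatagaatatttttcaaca

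Skipping of exon 4 in Clk1 is known to yield a product without the kinase domain. Exon 4 of Clk1 and Clk4 was identical at 85 of 91 aligned positions (93.4%), and the 20 intron bases after it were identical at all 20. The other pairs of kinase genes shared between 60.8% and 67.0% of exon 4 and 9 or 10 of those 20 intron bases. Intron 3 began with GTATGA and intron 4 with GTATAG in both Clk1 and Clk4. The members had 26 annotated retained introns, meaning introns of a coding isoform that lie whole inside a retained-intron isoform, some of which overlap and share a start, and none of which was in Rbm39 or Luc7l2. Of these 26, 4 opened with GTATGA (15.4%) and 2 with GTATAG (7.69%), read on the transcribed strand. GTATGA opened 0.851% and GTATAG 0.170% of the 6461 such introns in all genes with both isoform types. Among the members, GTATGA opened intron 3 of Clk1, 2 introns of Clk4 that share a start, and intron 18 of Rbm5. GTATAG opened only intron 4 of Clk1 and of Clk4. As both donors were picked from Clk1 and Clk4, these percentages do not test whether the donors are enriched among the members. The donors GTAAGT or GTGAGT opened 9 of the 26 (34.6%) and 24.1% of the 6461. The 26 introns had a median length of 581.5 bases, against 274 bases over the 6461.

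The levels of the 8 genes on chromatin ran from that of Rbm39, the 9th highest of 8758 expressed nuclear protein-coding genes, to that of Clk2, at place 2119. Levels are in TPM, a transcript abundance scaled for length and library size, and the median of those 8758 genes, called the reference gene, stood at 7.56, 6.64 and 6.56 TPM in replicates 1, 2 and 3. Rbm39 had 1100, 770.1 and 911 TPM in replicates 1, 2 and 3, and Luc7l2 446, 276 and 324 TPM. Clk1 had 388, 200.1 and 304 TPM and Ogt 209, 139 and 171 TPM in the same order. For these 4 genes replicate 1 was highest and replicate 2 lowest, and every library lay far above the reference gene. Rbm5 had 146, 98.0 and 105 TPM, Clk3 had 68.9, 52.1 and 61.6 TPM, and Clk4 had 70.9, 52.8 and 49.5 TPM. Clk2 was lowest, at 20.7, 22.1 and 18.3 TPM, and was the only member with its highest value in replicate 2.

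**Figure D1:**
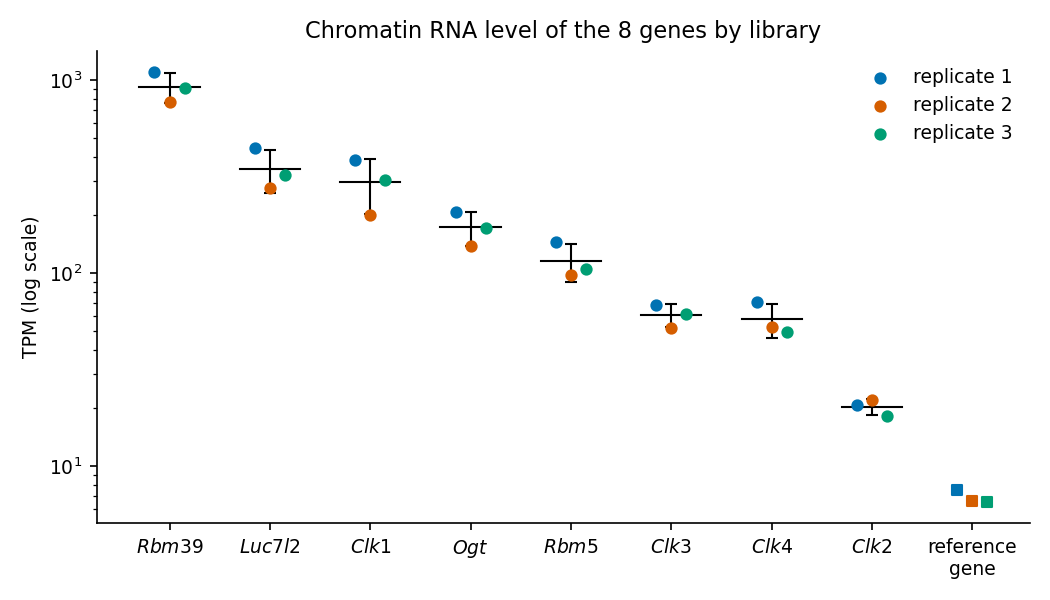
TPM (log scale) of the 8 genes and of the reference gene (squares) in each library; points are replicates, horizontal lines the mean and bars 1 SD. Rbm39 stands highest at 770.1 to 1100 TPM and Clk2 lowest at 18.3 to 22.1 TPM, above the reference gene at 6.56 to 7.56 TPM.

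Each level was tested against the reference gene with limma's treat method on log2(TPM + 0.1), which asks whether a gene lies more than 2-fold from it, with p-values adjusted by Benjamini-Hochberg over the 18397 genes of the table that entered. All 8 genes were called above it, while 15.1% of all genes tested were called above and 52.4% below. Genes entered from a mean of 0.1 TPM, below the 1 TPM asked of the genes behind the reference gene. Among the 11728 genes with a mean of at least 1 TPM, 23.1% were called above and 23.3% below, and all 8 members were called above. The median of the 8 was 4.32 log2 units above the reference gene, against -1.74 over all 18397 genes tested. The extremes were Rbm39 at 7.03 ± 0.16 (SE) log2 units above (adjusted p = 3.5e-05, limma) and Clk2 at 1.54 ± 0.13 (adjusted p = 0.0057, limma), each above it in 3 of 3 libraries. SE here and below is limma's moderated standard error, which also draws on the variance of other genes. Clk2 was not called when the reference gene came from genes with a mean of at least 5 TPM (0.35 log2 units above it) or with a 4-fold band. In RNA from bulk cells, fewer cells of a type and less RNA per cell cannot be told apart.

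The order of levels was Rbm39, Luc7l2, Clk1, Ogt, Rbm5, Clk3, Clk4 and Clk2, and 6 of its 7 neighbouring pairs differed by more than their spread in the same direction in 3 of 3 libraries. The exception was Clk3 over Clk4, at 0.08 ± 0.20 log2 units (SD, n = 3), with Clk3 higher in 1 of 3 libraries. The narrowest of the others was Luc7l2 over Clk1, at 0.25 ± 0.19 log2 units. For these 6 pairs the exact two-sided sign-flip permutation test over libraries gave p = 0.25, the smallest value that 3 libraries allow. The order was set by the mean levels of these same libraries, so the direction of each mean difference was fixed in advance. The order itself was therefore not tested.

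In counts scaled for library size, the replicates of 7 of the 8 genes differed by less than the median gene. The SD of log2 CPM, counts scaled for library size (edgeR with TMM scaling), was 0.076 for Clk3, 0.081 for Rbm39, 0.12 for Clk4, 0.13 for Rbm5, 0.16 for Ogt and Luc7l2 and 0.19 for Clk2, against a median of 0.27 over all 12927 genes that passed the count filter. Clk1 was the only member above that median, at 0.32, and deviated by 0.21, -0.36 and 0.15 log2 units from its mean in replicates 1, 2 and 3. This rested on replicate 2, without which the SD of Clk1 was 0.051, that of Clk2 0.069 and that of Ogt 0.023. Without replicate 1 the SD of Clk3 was 0.0035 and that of Clk4 0.043, and without replicate 3 that of Rbm39 was 0.039. Expected counts behind the levels were 492, 836 and 671 for Clk2 and 16444, 20656 and 22367 for Rbm39. The comparison with the median gene was not matched for count. Order across libraries depended on the unit. In log2 CPM, Rbm39, Ogt and Clk3 were highest in replicate 3, and Clk3 was lowest in replicate 1. In TPM each of these genes was highest in replicate 1. The spread of TPM was not compared with that of all genes.

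In 7 of the 8 genes the mean retained-intron share of TPM exceeded 40.2%, the mean over libraries of the median of all 5828 genes tested, and in Ogt it was lower. For Rbm39 this held in the alignment-based table alone: the alignment-free table gave it 33.3%, 35.1% and 34.6% in replicates 1, 2 and 3, below the median gene at 43.1%, 40.2% and 41.1%. That median of the alignment-based table was 42.9%, 38.8% and 38.8% in replicates 1, 2 and 3. The share was highest in Rbm5, at 85.9%, 75.2% and 81.6%, followed by Clk1 at 70.2%, 68.0% and 66.9%. Clk4 had 67.9%, 59.5% and 67.1%, Clk3 70.1%, 57.2% and 58.3%, and Luc7l2 60.4%, 53.4% and 57.0% in the same order. For these 5 genes, and for Clk2 and Rbm39, every library lay above the median of that library in the alignment-based table, and for Ogt every library lay below it. Clk2 had 56.1%, 41.7% and 56.8%, Rbm39 51.7%, 48.0% and 48.5%, and Ogt 36.3%, 18.6% and 23.9%. The share was lowest in replicate 2, made from the smallest amount of RNA, in 7 of the 8 genes. It was highest in replicate 1, made from the largest, in 7. The median of all genes was likewise highest in replicate 1, at 42.9%, and was 38.8% in replicates 2 and 3. How many of all genes have the same order was not counted, so the order is not shown to be particular to the members. The part of RNA amount in this was not tested.

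**Figure D2:**
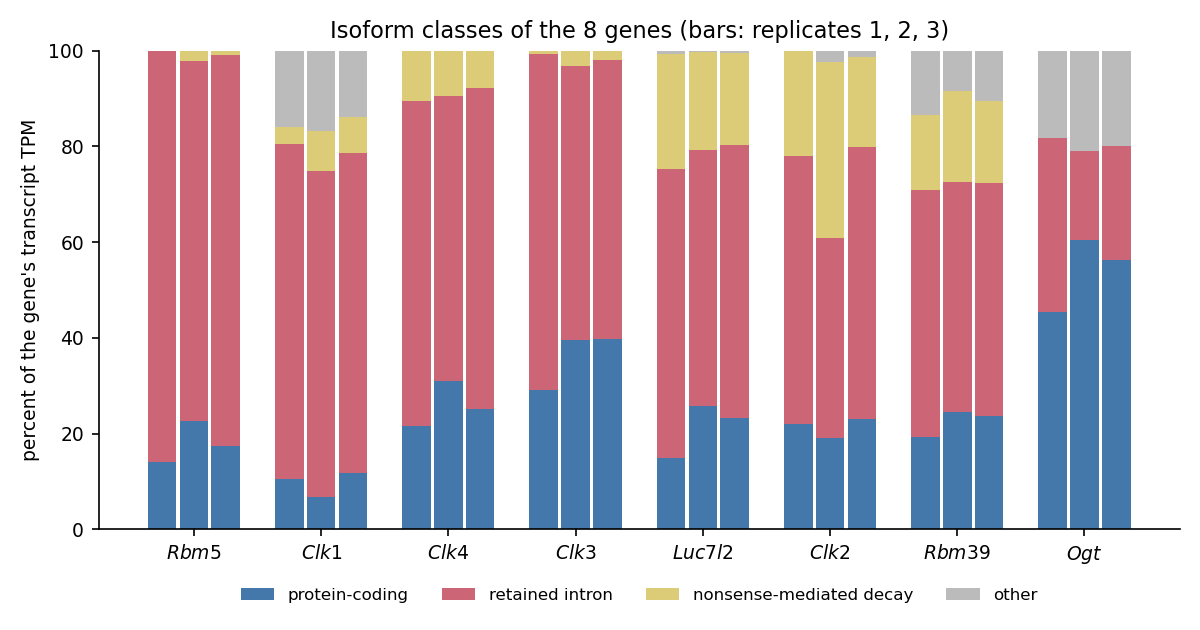
Percent of each gene's transcript TPM in the 4 annotated isoform types; the 3 bars of a gene are replicates 1, 2 and 3, and genes run from the highest to the lowest mean retained-intron share. Retained-intron isoforms take 80.9% of Rbm5 on average and 26.3% of Ogt, whose protein-coding isoforms take 54.0%.

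To set these makeups against all genes, the log2 ratio of retained-intron to protein-coding TPM, each with 0.1 added, was centred on the library's median gene (the retained-intron balance) and tested with limma treat in the same way over the 5828 genes that have both isoform types. Clk1, Rbm5 and Luc7l2 were called above the typical gene, or 3 of 8, beside 12.5% of all genes tested; none of the 8 was called below, beside 12.4%. Clk1 stood 2.85, 3.65 and 2.87 log2 units above in replicates 1, 2 and 3, with a mean of 3.12 ± 0.27 (SE, adjusted p = 0.0065, limma). Rbm5 stood 2.70, 2.06 and 2.58 above, a mean of 2.45 ± 0.22 (adjusted p = 0.0088, limma). Luc7l2 stood 2.12, 1.39 and 1.65 above, a mean of 1.72 ± 0.22 (adjusted p = 0.048, limma), and was no longer called when any 1 library was left out (adjusted p = 0.135, 0.0738 and 0.143 without replicates 1, 2 and 3). Clk4 at 1.60 ± 0.20, Clk2 at 1.50 ± 0.17, Rbm39 at 1.40 ± 0.17 and Clk3 at 1.04 ± 0.19 were above the typical gene in every one of the 3 libraries but not by enough to pass the 2-fold band (adjusted p = 0.058, 0.064, 0.104 and 0.817, limma). With expected counts in place of TPM, Clk4 at 2.88, Clk2 at 2.67 and Clk3 at 2.71 were called (adjusted p = 0.0029, 0.0023 and 0.0024, limma) and Rbm39 stood at 0.75, while the alignment-free table gave 0.66 for Clk2 and 0.59 for Clk3 and called Clk4 and Rbm39. Ogt lay -0.22, -1.35 and -0.87 log2 units from it and did not pass (mean -0.82 ± 0.28, adjusted p = 1.00, limma). The median of the 8 was 1.55, against -0.01 over all genes tested.

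**Figure D3:**
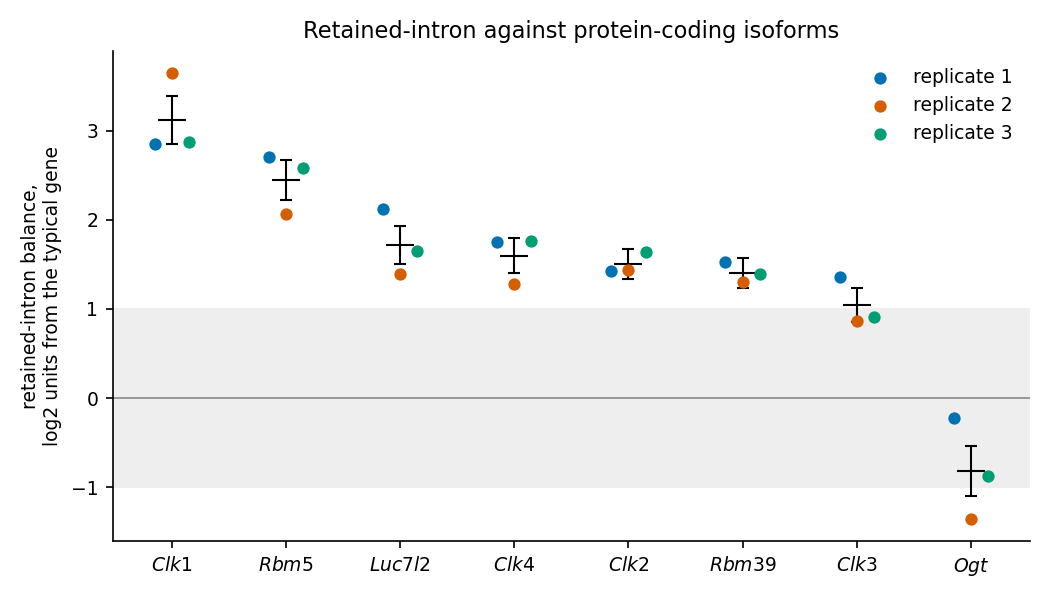
Retained-intron balance of the 8 genes in log2 units from the typical gene of the same library. Points are replicates, horizontal marks the mean, bars 1 moderated SE (limma) and the grey band 2-fold. Clk1 stands highest at 2.85 to 3.65, and Ogt is the only gene below 0, at -1.35 to -0.22.

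The number of annotated retained-intron isoforms, over which this measure sums, differed between genes. It was 7 in Clk1, Clk4 and Rbm39, 13 in Rbm5, 4 in Clk2 and Clk3 and 3 in Ogt and Luc7l2, against a median of 2 over all genes with both types. Among the 2430 genes with at least 3 such isoforms, a comparison added after seeing the data, 10.3% of genes were called above, and Clk1 at 2.52 (adjusted p = 0.017, limma) and Rbm5 at 1.84 (adjusted p = 0.038, limma) were, while Luc7l2 at 1.11 was not (adjusted p = 0.729, limma).

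Among the kinases, Clk1 on chromosome 1 (58410189 to 58424066, minus strand, ENSMUSG00000026034.17) had the smallest protein-coding share, 9.65% ± 2.53 (SD, n = 3). Its leading isoform was Clk1-204, a retained-intron isoform that holds introns 3, 4 and 6 whole and 870 of the 2328 bases of intron 7, at 98.0, 49.4 and 72.2 TPM in replicates 1, 2 and 3. The full coding isoform Clk1-201 had 40.5, 13.7 and 35.5 TPM, below Clk1-204 in every library. Clk1-202, which covers 1282 bases of intron 7, took 16.5% ± 0.73 of TPM and Clk1-213, with 187 of the 871 bases of intron 3, took 11.6% ± 3.15. The short Clk1-209 took 5.87% ± 1.45, and 12.3% in the alignment-free table. The decay isoform Clk1-210, which skips exon 4, took 6.41% ± 2.66.

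Clk2 on chromosome 3 (89164795 to 89176921, plus strand, ENSMUSG00000068917.12) had its highest mean share in an isoform that skips exon 4. This isoform, Clk2-204, annotated for nonsense-mediated decay, had 4.54, 8.15 and 3.45 TPM, highest in replicate 2. The retained-intron isoform Clk2-211, which covers parts of introns 6 and 12, had 3.71, 2.87 and 4.12 TPM and exceeded Clk2-204 in replicate 3. The retained-intron isoform Clk2-206, with intron 4, had 3.41, 2.80 and 2.40 TPM, and Clk2-207, with introns 3 and 4, had 3.12, 2.67 and 2.48 TPM. Full coding Clk2-203 took 11.5% ± 1.19. A short coding isoform, Clk2-210, took 1.22% here and 11.1% in the alignment-free table.

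Clk3 on chromosome 9 (57750624 to 57765860, minus strand, ENSMUSG00000032316.8) had its highest mean share in Clk3-202, a retained-intron isoform of 389 bases with 31 bases outside coding exons, at 24.4% ± 8.87 of TPM and 2.22% of counts. Clk3-202 had 22.91, 8.08 and 14.96 TPM in replicates 1, 2 and 3, and in replicate 2 it was below Clk3-203 and the coding isoform Clk3-205, at 8.83 TPM. Clk3-203, which keeps introns 3 and 4 whole, had 13.2, 10.6 and 9.63 TPM, or 18.4% ± 2.44 of TPM and 38.0% of counts. Clk3-205 took 15.2% ± 1.58, the short coding Clk3-204 10.2% ± 0.76 and Clk3-208, with 2441 of the 3206 bases of intron 1, took 13.2% ± 0.99. The only isoform to skip exon 4, Clk3-209, had 0.470, 1.67 and 1.19 TPM. Clk3 overlaps the opposite-strand gene Edc3 over 1876 bases, and 14.4% of its 31-base words occur in Edc3 on the opposite strand. Edc3 had 2.97 ± 0.61 TPM, and the sources used here do not say whether counting used strand.

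Clk4 on chromosome 11 (51261730 to 51281766, plus strand, ENSMUSG00000020385.16) had its highest mean share in Clk4-213, which keeps introns 3, 4, 7 and 8 whole, at 17.5, 9.87 and 13.4 TPM. This made 23.4% ± 4.29 of TPM and 58.8% of counts. Clk4-202, a coding isoform that begins within intron 4 and so lacks exon 4, had 7.44, 11.2 and 8.21 TPM and was above Clk4-213 in replicate 2 alone. The retained-intron isoform Clk4-211 took 11.6% ± 4.27. Short isoforms differed between the tables: Clk4-206 took 6.72% and 16.8%, Clk4-209 took 9.30% and 12.4%, and the decay isoform Clk4-212, which skips exon 4, took 3.95% and 16.0% in the alignment-based and the alignment-free table.

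The shares of isoforms that keep intron 3 or 4 and of those that skip exon 4 can be set side by side for the kinase genes, and they depended on the table for Clk4. In the alignment-based table the share keeping an intron was 28.6% ± 1.05 in Clk1, 27.6% ± 3.50 in Clk2, 24.3% ± 3.02 in Clk3 and 23.4% ± 4.29 in Clk4 (SD, n = 3). This was only part of the mean share of all retained-intron isoforms, at 68.3% in Clk1, 51.5% in Clk2, 61.9% in Clk3 and 64.9% in Clk4. The libraries of Clk1, at 27.4% to 29.5%, lay above every library of Clk4, at 18.7% to 27.0%, and of Clk3, the highest of which also rounds to 27.4%, while the other pairs overlapped. The alignment-free table gave means of 25.9% in Clk1, 24.2% in Clk2, 18.6% in Clk3 and 13.6% in Clk4. The share skipping exon 4 in the alignment-based table was 25.9% ± 9.65 in Clk2, 12.8% ± 1.80 in Clk4, 6.84% ± 2.84 in Clk1 and 1.94% ± 1.26 in Clk3. In Clk2 it was 21.9%, 36.9% and 18.8% in replicates 1, 2 and 3, above every library of the other kinases in that table. In the alignment-free table Clk2 had 23.4%, 30.8% and 14.8% and Clk4 16.7%, 27.3% and 18.8%, so that the libraries of these genes overlapped. Clk1 and Clk4 shared 36 words of 31 bases, out of 8327 in Clk1 and 6051 in Clk4, so reads from those words could be divided between them.

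**Figure D4:**
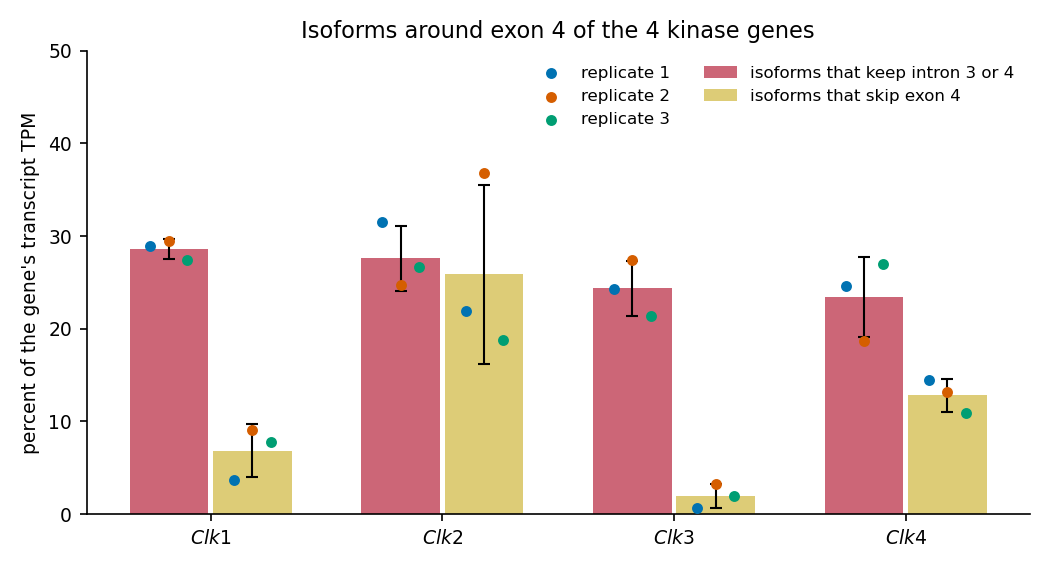
Percent of transcript TPM in the alignment-based table in isoforms that keep intron 3 or intron 4 (left bar of each gene) and in isoforms that skip exon 4 (right bar); bars are means of 3 libraries, lines 1 SD, points replicates. The keeping share lies between 23.4% and 28.6% on average, and the skipping share between 1.94% in Clk3 and 25.9% in Clk2.

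Rbm5 on chromosome 9 (107740371 to 107770996, minus strand, ENSMUSG00000032580.12) also had a long isoform that keeps the introns on both sides of a coding exon. Rbm5-219 holds introns 5 and 6 around exon 6, of 74 bases, and had 22.6, 12.7 and 14.3 TPM. It took 14.0% ± 1.33 of TPM and 43.3% of counts. Exon 6 is shown in capitals with 20 bases of each intron, since it parallels the arrangement in the kinase genes.
Rbm5 (chr9:107759756-107759869, minus strand): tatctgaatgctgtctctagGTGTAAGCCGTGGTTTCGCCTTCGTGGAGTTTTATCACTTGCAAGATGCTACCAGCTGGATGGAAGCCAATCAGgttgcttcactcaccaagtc

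Isoforms of Rbm5 that skip exon 6 took 1.02% ± 1.08. The full coding isoform Rbm5-214 had 4.52, 11.1 and 7.26 TPM, below Rbm5-219 in every library. Of the short retained-intron isoforms, Rbm5-206, with 404 bases of intron 4, took 12.0% ± 1.67, Rbm5-207, with 504 bases of intron 22, took 11.5% ± 2.66, and Rbm5-212 took 4.03% here and 10.8% in the alignment-free table. The antisense gene Gm37850 overlaps Rbm5 over 780 bases and had 10.4 ± 2.48 TPM.

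Rbm39 on chromosome 2 (156147239 to 156180238, minus strand, ENSMUSG00000027620.16) had no whole intron of a coding isoform inside a retained-intron isoform, and its 7 isoforms of that type cover parts of introns 2, 3, 4, 6 and 7. Its leading isoform in the alignment-based table was coding: Rbm39-217 had 202, 174 and 199 TPM, 20.9% ± 2.27 of TPM and 43.1% of counts. Next came Rbm39-223, annotated for nonsense-mediated decay, with 103, 83.3 and 107 TPM (10.7% ± 1.20). It adds an exon of 72 bases within intron 3, whose coding part ends at a stop codon. That part is shown with the stop in capitals, because Rbm39-217 lacks this exon. Rbm39-217 in turn has an exon of 147 bases within intron 1 that Rbm39-223 lacks.
Rbm39 (chr2:156174126-156174168, minus strand): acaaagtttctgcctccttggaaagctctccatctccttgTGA

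The same added exon is in the retained-intron isoform Rbm39-210, at 7.46% of TPM. Rbm39 was the member whose level differed most between the tables. The alignment-free table gave it 1810 ± 650.2 TPM, 1.91 times the alignment-based value, with 33.7% in decay isoforms against 17.3%. Rbm39-224, a decay isoform of 585 bases, had 340.2, 139 and 237 TPM there, against 29.2, 11.0 and 10.7 TPM in the alignment-based table, and the processed transcript Rbm39-214 took 10.6% there and 7.11% here. The coding Rbm39-217 had 117, 89.8 and 109 TPM there. By expected counts in place of TPM, which gives weight to long isoforms, the retained-intron share of Rbm39 was 27.0%, against 49.4% by TPM.

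**Figure D5:**
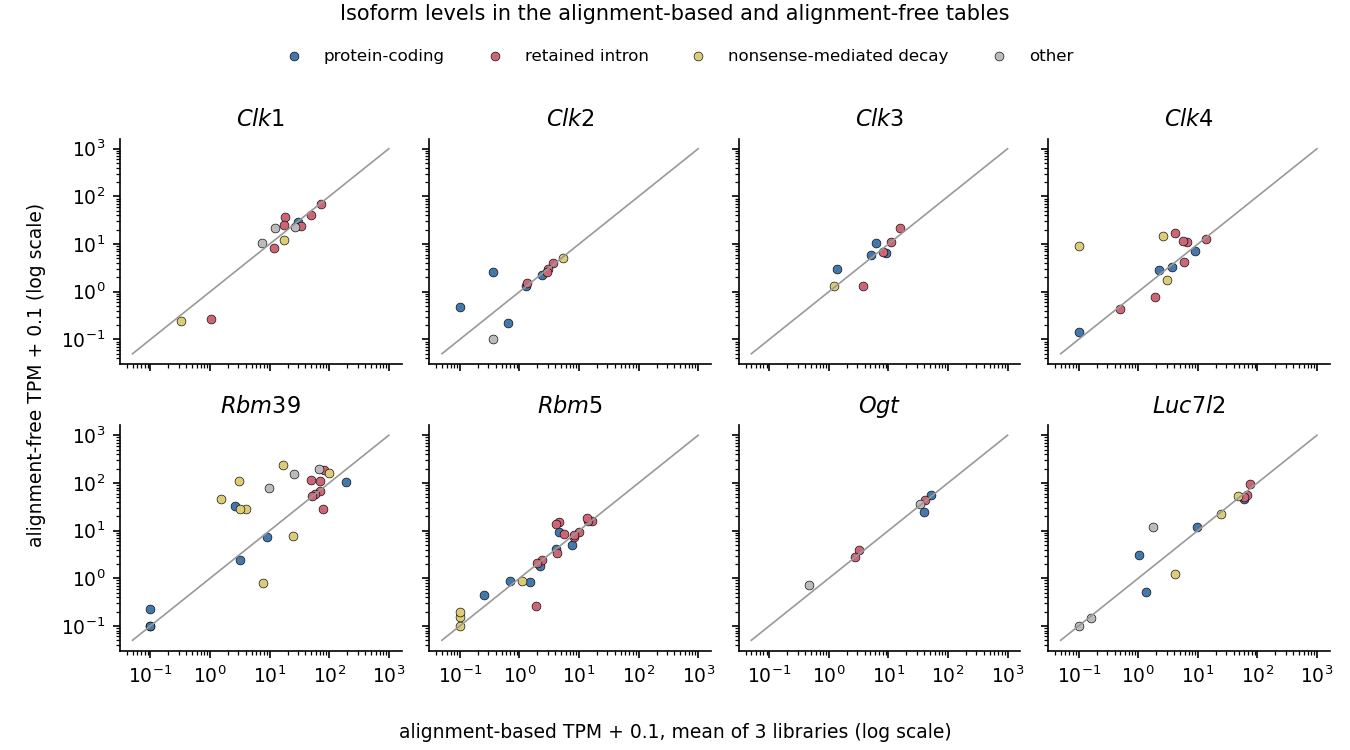
Mean TPM + 0.1 of each isoform in the alignment-free table (y axis, log scale) and in the alignment-based table (x axis, log scale), coloured by annotated type, with the line of equal values. Rbm39-224, a decay isoform, lies far above the line, at 340.2, 139 and 237 TPM in the alignment-free table against 29.2, 11.0 and 10.7 TPM.

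Luc7l2 on chromosome 6 (38551334 to 38609470, plus strand, ENSMUSG00000029823.16) likewise kept no whole coding intron. Of its retained-intron isoforms, Luc7l2-210 lies wholly inside intron 1, which spans 18601 bases, and had 108, 53.5 and 63.5 TPM. Luc7l2-206 joins exon 1 to an exon of 3070 bases within the same intron and had 88.2, 41.1 and 68.1 TPM. Luc7l2-203, which took 17.4% ± 1.59, has 408 bases outside coding exons, all in intron 1. It also covers 2558 of the 4684 bases of intron 9, which lie in exons of other coding isoforms. The decay isoform Luc7l2-204 includes exons of 101, 68 and 71 bases within intron 1 and took 13.1% ± 1.61, and the 68-base exon is also in Luc7l2-210. The leading coding isoform, Luc7l2-207, had 54.3, 61.0 and 62.9 TPM, lowest in replicate 1 where both intron 1 isoforms were highest. The noncoding gene Gm26699 lies opposite over 2477 bases, had 13.5 ± 5.91 TPM and shares 2228 of Luc7l2's 12239 words of 31 bases on the opposite strand; Gm11889 shares 580 on the same strand.

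Ogt on the X chromosome (101640060 to 101684351, plus strand, ENSMUSG00000034160.13) had the highest mean protein-coding share of the members, 54.0% ± 7.69, with 45.5%, 60.4% and 56.2% in replicates 1, 2 and 3. The alignment-free mean was 49.2%. Its leading retained-intron isoform was Ogt-204, of 4 exons and 3087 bases, which begins within exon 1 and ends after 2378 of the 3415 bases of intron 4. It also holds whole a 107-base intron that another coding isoform, Ogt-202, removes from exon 1, and this is the only intron of Ogt among the 26. Ogt-204 had 65.8, 23.1 and 36.1 TPM in replicates 1, 2 and 3. The coding isoforms Ogt-202 and Ogt-201 had 43.9, 60.7 and 50.4 TPM and 51.0, 23.0 and 45.5 TPM. Replicate 1 was thus the only library with Ogt-204 above both of them. Ogt-203, a processed transcript that starts 279 bases before the end of intron 4, took 19.5% ± 1.37, a further reading of intron 4 outside the retained-intron type. The start of intron 4 is shown with 20 bases of exon 4 before it and its first 6 bases in capitals, as the junction that Ogt-204 reads through.
Ogt (chrX:101652189-101652228, plus strand): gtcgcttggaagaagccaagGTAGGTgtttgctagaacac

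The genes nearest to 7 of the members in isoform makeup were found by the root mean square difference of 4 type shares over 3 libraries, among 2686 nuclear protein-coding genes with a mean of at least 10 TPM and a retained-intron isoform. Rbm5 was nearest to Ankrd17 and Sgsm3, at 0.957 and 0.968 percentage points, Clk3 to Peli1 and Pdcd10, at 1.59 and 1.63, and Clk4 to Npepl1 and Apbb2, at 1.55 and 2.25. Clk2 was nearest to Zranb2 and Ttpal, at 2.53 and 5.01, and Luc7l2 to Wsb1 and Ttpal, at 3.19 and 3.33. For Rbm39 these were Ezh2 and Fam13b, at 3.09 and 4.36, and for Clk1 Mtch2 and Dpf2, at 3.75 and 4.19. Among these 7, no member was one of the 2 nearest of another.

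Of 10 other kinase genes whose products act on SR proteins or on transcription and splicing, 8 were called above the reference gene and 2 below, with a median of 2.09 log2 units. Cdk12, a kinase of the RNA polymerase II tail, was highest at 111, 57.4 and 100.03 TPM, and the SR protein kinase gene Srpk3 was lowest at 1.02, 0.790 and 0.590 TPM. Of the 5 with both isoform types, none was called in retained-intron balance by limma treat. These were Cdk13, Dyrk1a, Prpf4b, Srpk1 and Srpk2, and Prpf4b came nearest at 1.59 (adjusted p = 0.056, limma).

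Relatives of the splicing factors were measured by 9 of 10 listed genes, of which 6 were called above the reference gene and 3 neither way. U2af2, the U2AF large subunit, was highest at 110.3, 124 and 126 TPM, and Rbm10, a paralogue of Rbm5, lowest at 3.04, 3.71 and 2.78 TPM. In retained-intron balance 2 of 8 were called above. U2af1, the U2AF small subunit, stood at 4.42 ± 0.47 (SE) log2 units from the typical gene (adjusted p = 0.0075, limma), and U2af2 at 2.24 ± 0.25 (adjusted p = 0.017, limma), each above it in 3 of 3 libraries.

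Of 8 genes of the O-GlcNAc cycle, 2 were called above the reference gene, 2 below and 4 neither way. Beside Ogt's 173 ± 35.0 TPM, the gene of the enzyme that removes the sugar, listed as Mgea5, had 93.3, 74.1 and 83.5 TPM. The pathway's entry enzyme Gfpt1 had 31.2, 25.4 and 32.3 TPM, and Gfpt2 was lowest, at 0, 0.05 and 0.05 TPM. Out of 5 genes with both isoform types, Pgm3 was called above the typical gene in retained-intron balance, at 3.82 ± 0.63 (adjusted p = 0.022, limma). Hcfc1 was called below, at -3.10 ± 0.30 (adjusted p = 0.0079, limma). Pgm3 had only 3.25, 2.75 and 2.96 TPM in replicates 1, 2 and 3, with balances of 5.17, 2.13 and 4.17. At so low a level the added 0.1 TPM can set much of the ratio, so the size of this balance is uncertain.

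Of 16 other genes known for detained introns or their control, 15 were called above the reference gene and 1, Mettl16, neither way, with a median of 3.92 log2 units. The cyclin gene Ccnl1 was highest, at 892, 542 and 651 TPM, and Mettl16, the RNA methyltransferase gene, lowest at 3.58, 2.96 and 2.47 TPM. In retained-intron balance 4 of 14 were called above: Ccnl1 at 7.14 ± 1.21, the splicing factor gene Tra2a at 4.04 ± 0.27, Taf1d at 2.87 ± 0.35 and Clasrp, named for its binding to CLK4, at 2.10 ± 0.32 log2 units (adjusted p = 0.018, 0.0060, 0.014 and 0.042, limma). Ccnl1 stood at 9.89, 5.68 and 5.87 in replicates 1, 2 and 3, so its mean was raised by replicate 1. The median over the 14 was 1.24.

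The markers fitted the labelled cell type. Of 10 macrophage markers 8 were called above the reference gene and 2 neither way, with Csf1r, the receptor for colony-stimulating factor 1, at 203 ± 27.3 TPM. All 28 markers of 8 other cell types had a mean below 1 TPM, and 10 were at 0 in every library. Expected counts summed to 12699813 in replicate 1, 18280033 in replicate 2 and 18087091 in replicate 3.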

How the data were processed

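Per the labels, chromatin RNA of Lipid A-treated macrophages was sequenced in 3 replicates. The authors deposited, per library, gene and transcript tables with expected counts and TPM, derived from alignments (alignment-based), and a transcript table with estimated counts and TPM (alignment-free). Per the deposited notes the values refer to mm10 and annotation release M21; which programs made them is not given in those sources. Rows without a gene annotation (tRNA, spike-ins) held 1.31%, 0.284% and 0.255% of expected counts in replicates 1, 2 and 3 and were left out. Tests used limma 3.58.1 in R 4.3.3 (treat, trended prior, pseudocount 0.1 TPM, mean of at least 0.1 TPM for levels and 1 TPM for balance), and were tested on simulated data. The spread used edgeR 4.0.16 on expected counts rounded to whole numbers (minimum count 10, prior count 2) and, as an alternative, DESeq2 1.42.0. A p-value measures only the spread between these libraries, which may be technical. Introns under 30 bases were ignored. Isoforms named hold at least 10% of a gene's TPM in either table or carry a described event; further genes are the highest, the lowest and the called ones of fixed lists. The members and lists were chosen with earlier results of these data known. Oga was found under its older symbol through RefSeq (GRCm38.p6), and Rbm23 was not analysed here. The genes nearest to Ogt in isoform makeup are not reported here. The alternatives tried are given in the closing section.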

Additional observations from a re-analysis of the deposited data

How the results depend on the processing

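The number of genes called above the reference gene in level was 8, or 7 with a 4-fold band or with reference genes from 5 TPM, and 8 when any 1 library was left out. The number called above the typical gene in retained-intron balance was 3, and 5 in the alignment-free table, 6 with expected counts in place of TPM, 7 without a band and 0 with a 4-fold band (Clk1 adjusted p = 0.078, limma); it was 2 without any 1 library, with a pseudocount of 0.01, without a TPM filter, and among genes with at least 3 retained-intron isoforms. In the alignment-free table Clk4 and Rbm39 were called beside Clk1, Rbm5 and Luc7l2 (adjusted p = 0.0092 and 0.0036, limma), with expected counts Clk2, Clk3 and Clk4 were, and without a band all of these but not Ogt. The cause of these shifts was not tested; a band alters the question asked. In the main fit 12.5% of all genes were called above in balance. This share was 20.6% in the alignment-free table, 24.2% with expected counts, 31.8% without a band and 1.7% with a 4-fold band. It was 9.19%, 8.07% and 6.1% without replicates 1, 2 and 3, 11.2% with a pseudocount of 0.01 and 4.57% without a TPM filter. In level, 15.1% of all genes were called above in the main fit, 7.97% with a 4-fold band and 7.31% with reference genes from 5 TPM. No level or balance changed sign. Class shares stayed within 1 SD of the reported value in 104 instances and moved further in 16. All 16 were in the alignment-free table or with expected counts. Leaving out 1 of 3 libraries cannot move a mean by 1 SD, so those instances say nothing about stability. The SD of log2 CPM of Clk1 was 0.31 with DESeq2 size factors and lay between 0.051 and 0.41 when 1 library was left out. Neighbours in the order of levels beyond their spread numbered 6, and 7 in the alignment-free table, where Clk4 stood above Clk3, and without replicate 3; leaving out libraries here, and the minimum of 3 isoforms, were chosen after seeing the data. No paired analysis was possible because the series has 1 group. Shares of short isoforms rest on few counts and differ between the tables, which limits statements on single isoforms.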

Other observations

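Values that belong to no comparison above concern the levels of the 8 genes across both tables. The alignment-free TPM was 1.62 times the alignment-based value for Clk4 and 1.20 times for Rbm5, and lay between 0.956 and 1.10 times for Clk1, Clk2, Clk3, Ogt and Luc7l2. The 146 introns of their coding isoforms had a median length of 915.5 bases, against 1304 bases over 93954 introns of all genes with both isoform types.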
